A study of Rattus norvegicus with 15 samples.

Results

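The enzymes that finish the digestion of sugars and peptides sit on the brush border, the microvillus surface of the enterocytes of the small intestine. Lactase (Lct), sucrase-isomaltase (Si), maltase-glucoamylase (Mgam) and trehalase (Treh) split disaccharides and starch fragments. Aminopeptidase N (Anpep), dipeptidyl peptidase 4 (Dpp4), glutamyl aminopeptidase (Enpep), neprilysin (Mme) and gamma-glutamyltransferase 1 (Ggt1) act on peptides, and intestinal alkaline phosphatase (Alpi) removes phosphate groups. The monosaccharides, amino acids and small peptides that they release are then taken up by transporters in the same membrane.

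These genes were measured on 15 Agilent 1-colour whole rat genome arrays, 5 in each of 3 groups of male rats. Wistar rats were the nondiabetic, unoperated controls. GK-Sham-PF were sham-operated, pair-fed rats of the Goto-Kakizaki (GK) strain, a nonobese strain with spontaneous diabetes, in which the intestine was cut 16 cm from the ligament of Treitz and rejoined in place. GK-S-30 were GK rats that received a Roux-en-Y gastric bypass (RYGB) with a Roux limb (RL, the stretch of intestine joined to the stomach remnant, which carries food without bile) of 30 cm. The operations were done at 16 wk of age, and 14 wk later, after an overnight fast, a 5-cm segment was taken from each rat. It came from the RL, 5 cm from its junction with the stomach, in GK-S-30 rats and from 21 to 26 cm beyond the ligament of Treitz in the other groups. The comparison of GK-S-30 with GK-Sham-PF asked what the bypass changed, and that of GK-Sham-PF with Wistar what differed with the diabetic strain, the sham operation and pair feeding together. These are called the bypass comparison and the sham comparison. Each sample was labelled as a separate replicate of its group and was extracted individually.

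Members were the probes, outside the array's controls, that carry the name of 1 of these 10 genes in the scanner files. Alpi could also be listed as Akp3, the name of a second intestinal alkaline phosphatase that has its own RefSeq entry, so probes of either name were taken and are given under the name they carry. The rule found 15 of the 41012 probes. They name 9 of the 10 genes, of 17347 gene names on the array: Lct, Anpep, Dpp4, Enpep and Akp3 had 2 probes each, and Si, Treh, Mme, Ggt1 and Alpi had 1. No probe carries the name Mgam. A probe called LOC679818, described in the files as similar to maltase-glucoamylase, is no member and is given separately. All 15 member probes were well above background on all 15 arrays and none was saturated, so all 15 were among the 17029 named probes tested. Where a gene had 2 probes, probe A is the one with the higher mean signal.

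The probes are 60-base oligonucleotides, printed here in the direction the files give and in lower case. The Lct and Ggt1 probes are shown because the largest called changes were those of Ggt1 and Lct probe B, and the first 30 bases of each Dpp4 probe because these probes disagreed.
Lct probe A: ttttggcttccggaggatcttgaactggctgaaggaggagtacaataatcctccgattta
Lct probe B: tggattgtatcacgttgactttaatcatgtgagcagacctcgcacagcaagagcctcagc
Ggt1: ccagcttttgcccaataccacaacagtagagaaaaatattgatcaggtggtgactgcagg
Dpp4 probe A, first 30 bases: catgaagtgaaaattacttgcgtcagttct
Dpp4 probe B, first 30 bases: tattagcagttccacctcttggcacgtact
On the rn4 build given in the files, Lct probe A lies on the minus strand at chr13:40993177-40993236 and probe B at chr13:41003079-41003138, 9902 bases further upstream in the gene's reading direction. Dpp4 probe A is placed on the minus strand at chr3:44280955-44281010, which covers 56 bases, and probe B at chr3:44279310-44279369, 1641 bases further downstream. The Ggt1 probe is unmapped in the files. Each Lct probe and the Ggt1 probe has 1 reading frame, of the 3 read in the printed direction, without a stop codon.

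The probes of Anpep differ in kind. Probe A, placed across 858 bases on the minus strand of chr1:135604381-135605238 (rn4), is interrupted in the genome, and its sequence is given next. Probe B was designed on a partial Anpep mRNA and is placed 14041 bases upstream of probe A, at chr1:135619220-135619279 (rn4). All 60 of its bases were found in the Anpep promoter of the RefSeq table, beginning 71 bases before the annotated start of the gene. The 250 bases before that start (RefSeq, GRCr8, minus strand of chr1:143195102-143195351) are printed with the probe in capitals.
Anpep probe A: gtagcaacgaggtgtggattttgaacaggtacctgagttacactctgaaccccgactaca
Anpep promoter: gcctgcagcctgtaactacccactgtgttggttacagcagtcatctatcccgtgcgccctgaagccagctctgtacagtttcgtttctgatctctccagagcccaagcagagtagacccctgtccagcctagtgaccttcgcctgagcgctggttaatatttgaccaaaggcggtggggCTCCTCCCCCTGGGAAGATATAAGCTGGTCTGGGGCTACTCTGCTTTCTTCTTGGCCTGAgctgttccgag
By that annotation, probe B of Anpep lies outside the transcript that starts there. It was well above background on all 15 arrays, at 7.70 to 8.42, and its values are given apart from those of probe A.

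All levels are log2 normalized signals, changes are differences of group means on that scale with limma's SE, and a probe was called at an adjusted p under 0.05 over the 17029 probes. In the bypass comparison, 8.36% of all tested probes were called, 4.77% higher and 3.59% lower. In the sham comparison 7.88% were called, 3.74% higher and 4.14% lower. In GK-S-30 against Wistar 24.1% were called, 11.9% higher and 12.2% lower.
Of the 15 member probes, 1 was called in the bypass comparison, 0 in the sham comparison and 2 in GK-S-30 against Wistar. As shares of the members these calls were 6.67%, 0% and 13.3%, near or below the shares of all probes. At an unadjusted p under 0.05 the counts were 5, 3 and 5 of the 15, beside 22.1%, 19.5% and 36.5% of all tested probes. By these unadjusted counts the member share was above that of all probes in the bypass comparison and near or below it in the others. The median change of the members was -0.14, -0.05 and -0.23, against -0.02, 0.01 and -0.01 for all tested probes.

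**Figure D1:**
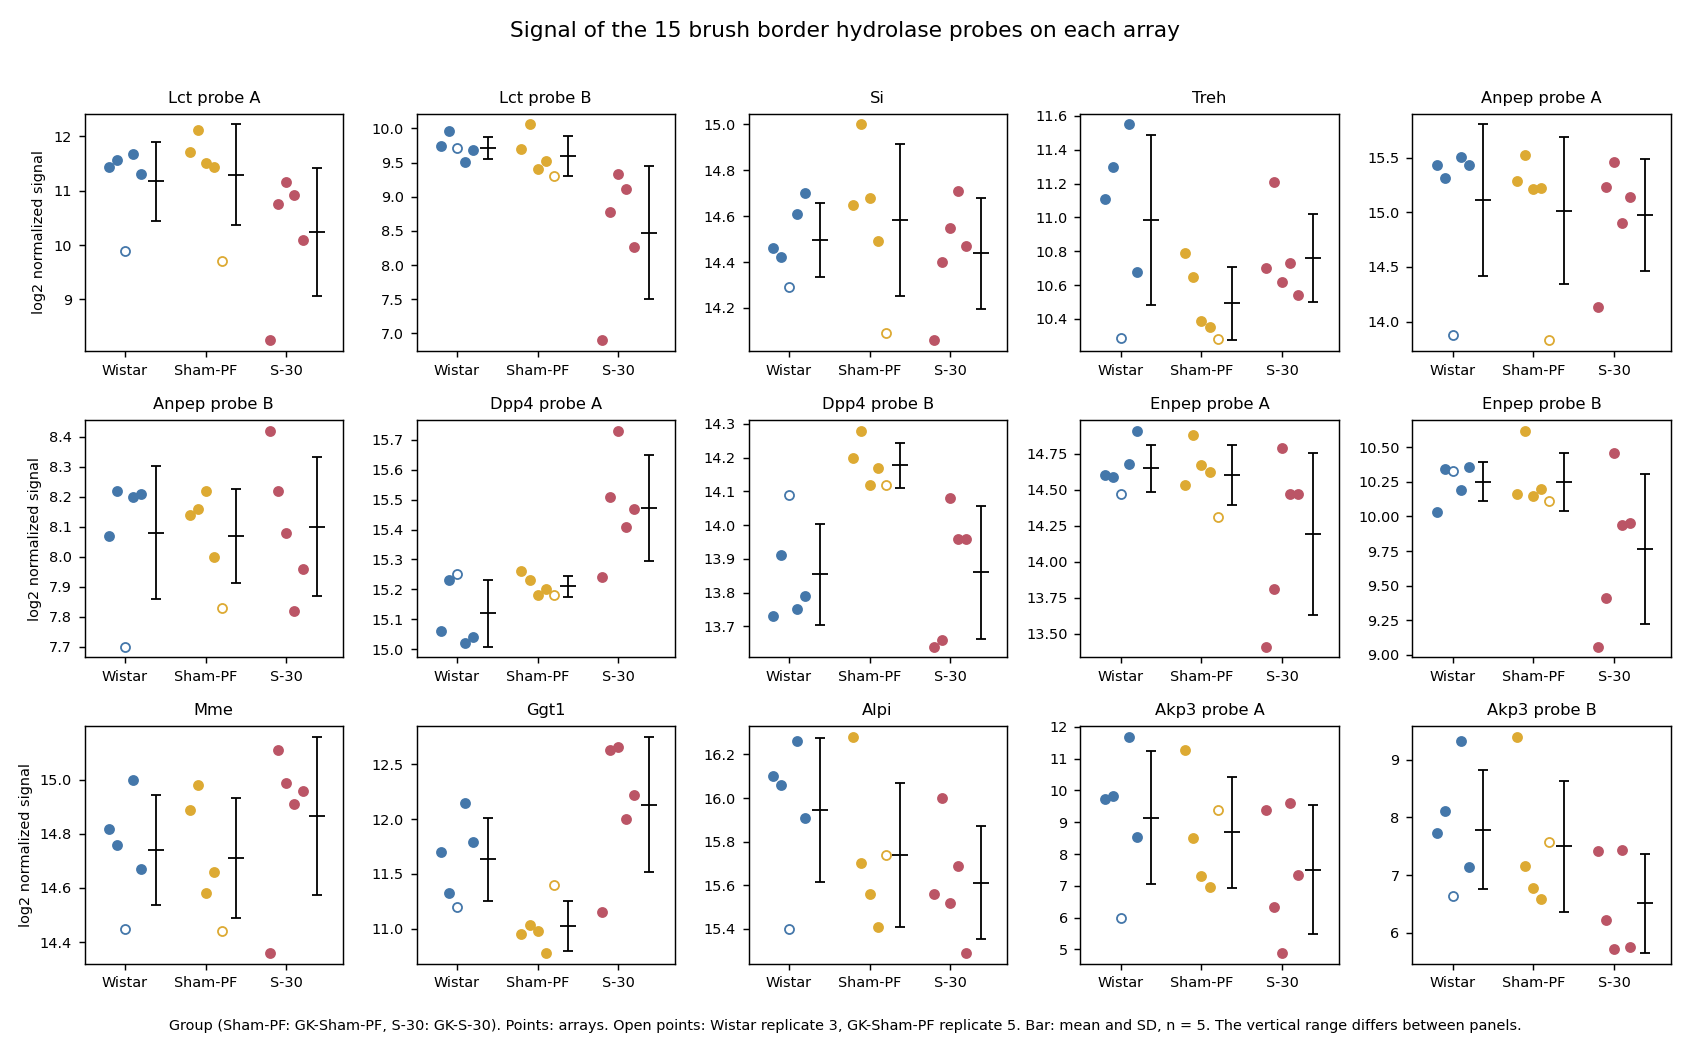
Log2 normalized signal of the 15 member probes (vertical axis, its range differing between panels) on each array of the 3 groups (horizontal axis), with the mean and SD of 5 arrays as a bar. GK-S-30 reached higher than both other groups for Ggt1 and lower for Lct probe B, and Akp3 probe A spread over several log2 units within each group.

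**Figure D2:**
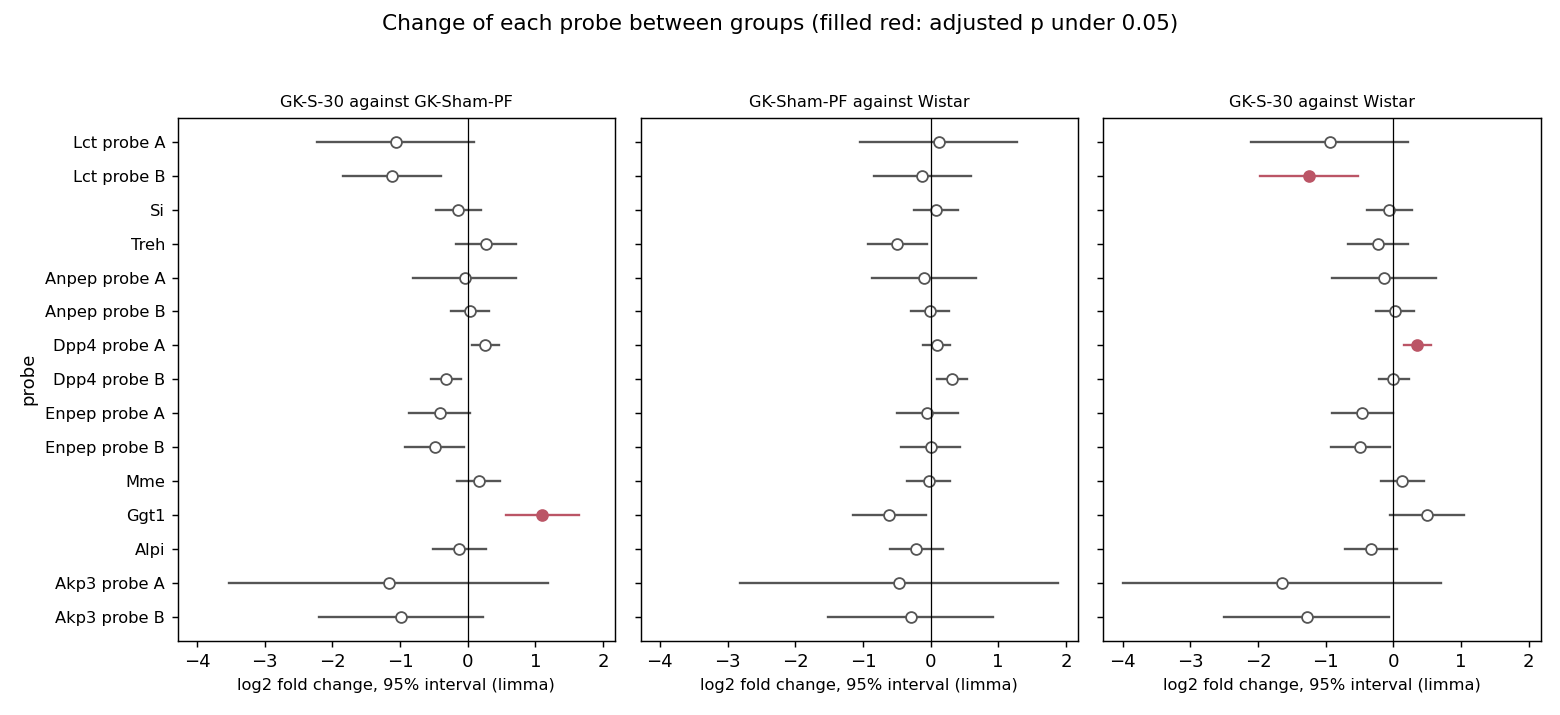
Log2 fold change of each member probe (horizontal axis) with limma's 95% interval, 1 panel for each of the 3 comparisons. Filled red points passed an adjusted p of 0.05: Ggt1 in the bypass comparison, and Lct probe B and Dpp4 probe A in GK-S-30 against Wistar.

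Facts of the whole series bear on these values. The third Wistar array (replicate 3) and the fifth array of GK-Sham-PF (replicate 5) were dimmer, with a 75th percentile of the signal of 207 and 208 against 302 to 357 on the others. After normalization, 325 of the 17029 tested probes (1.91%) were still more than 1 log2 unit lower on both of these arrays than on the other 4 arrays of their group, among them Lct probe A and Anpep probe A. The arrays lay on 4 slides, of which 1 held 4 Wistar arrays, 1 held the remaining Wistar array beside 3 GK-Sham-PF arrays, 1 held 2 arrays of each GK group and 1 held the other 3 GK-S-30 arrays. GK-S-30 and Wistar shared no slide, so their comparison within a slide had no value. In the fit with the slide as a fixed block, differences come only from the shared slides. The bypass comparison then rests on 2 arrays of each GK group, and the sham comparison on 3 GK-Sham-PF arrays and 1 Wistar array. GK-S-30 against Wistar is then the sum of these differences. The mean of the 10 enterocyte and epithelial markers ran from 15.57 to 15.78 in Wistar, 15.54 to 15.78 in GK-Sham-PF and 15.67 to 15.93 in GK-S-30 rats, so the labelled intestine carried its markers in every group. Tissue of other kinds moved with the bypass: the summed signal of the 9 measured smooth muscle markers was 31700 to 55800 in Wistar, 28700 to 62400 in GK-Sham-PF and 97400 to 124000 in GK-S-30 rats. Of these markers 5 of 9 were called higher and 0 lower in the bypass comparison, beside 4.77% and 3.59% of all tested probes. The lowest adjusted p were those of Des (1.99, adjusted p = 4.98e-05) and Actg2 (2.35, adjusted p = 5.93e-05), an intermediate filament and an actin of muscle. The bulk segment cannot tell fewer cells of a type from less RNA per cell, and the part of muscle in the results that follow was not tested.

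Lactase, which splits milk sugar and is highest in the suckling animal, was lower in the RL than in Wistar intestine by 1 of its 2 probes. Lct probe B read 6.90, 8.77, 9.33, 9.12 and 8.26 in GK-S-30 rats. It read 9.70, 10.06, 9.41, 9.52 and 9.31 in GK-Sham-PF and 9.74, 9.96, 9.71, 9.51 and 9.68 in Wistar rats. All GK-S-30 arrays were below all Wistar arrays, and only the highest of them, at 9.33, passed the lowest GK-Sham-PF array.
Lct probe B fell by 1.24 (SE 0.34, 2.37-fold, limma adjusted p = 0.0152, n = 5) in GK-S-30 against Wistar. Against GK-Sham-PF the change of -1.12 (SE 0.34, adjusted p = 0.0542) did not pass. Arrays that did not overlap between groups were found for 1 of the 15 member probes in GK-S-30 against Wistar, this one, beside 18.3% of all tested probes.
Lct probe A read 8.25, 10.75, 11.16, 10.92 and 10.09 in GK-S-30 rats. It read 11.72, 12.11, 11.51, 11.44 and 9.71 in GK-Sham-PF and 11.43, 11.57, 9.90, 11.68 and 11.30 in Wistar rats. The groups overlapped, and the dimmer arrays, at 9.71 and 9.90, were the lowest of their groups for this probe, while for probe B they read 9.31 and 9.71.
The changes of probe A were -1.06 against GK-Sham-PF (95% interval -2.22 to 0.10) and -0.94 against Wistar (-2.10 to 0.22), neither called. Without the dimmer arrays they were -1.46 (adjusted p = 0.0584) and -1.26 (adjusted p = 0.0561), and without GK-S-30 replicate 1 they were -0.57 (adjusted p = 0.536) and -0.44 (adjusted p = 0.531). The changes of the Lct probes differed by 0.06, 0.24 and 0.30 in the bypass comparison, the sham comparison and GK-S-30 against Wistar, none of them called (exact permutation p from 0.492 to 0.992). GK-S-30 replicate 1 was the lowest array of its group for both probes. Without it, probe B changed by -0.85 against Wistar (adjusted p = 0.00811) and by -0.73 against GK-Sham-PF (adjusted p = 0.0457). Against GK-Sham-PF it also passed without GK-S-30 replicate 3 (-1.34, adjusted p = 0.027) or replicate 4 (-1.28, adjusted p = 0.0376). Replicates 3 and 4 were the highest of the group for this probe, so leaving out either lowers the group mean. Over 28 alternative settings probe B passed in 5 against GK-Sham-PF and in 26 against Wistar. On the slide shared by both GK groups, the means of 2 arrays each were 7.84 in GK-S-30 and 9.41 in GK-Sham-PF for probe B. With the slide as a fixed block probe B was not called against Wistar, at -1.59, a value that rests on 1 Wistar array. GK-Sham-PF and Wistar differed by -0.12 in probe B (95% interval -0.84 to 0.60) and 0.12 in probe A (-1.04 to 1.28).

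Sucrase-isomaltase, which digests table sugar and the ends of starch fragments, had no called change. Si read 14.06 to 14.71 in GK-S-30 (mean 14.44 ± 0.24, SD, n = 5), 14.09 to 15 in GK-Sham-PF (14.58 ± 0.33) and 14.29 to 14.70 in Wistar rats (14.50 ± 0.16). The groups overlapped, with the highest array in GK-Sham-PF and the lowest in GK-S-30. The change of -0.14 in the bypass comparison had a 95% interval of -0.47 to 0.19, that of 0.08 in the sham comparison one of -0.25 to 0.41, and that of -0.06 in GK-S-30 against Wistar one of -0.39 to 0.27. The intervals thus held no change of Si beyond 0.721-fold to 1.33-fold.

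Trehalase, which splits the sugar of mushrooms and insects, read 11.11, 11.30, 10.29, 11.55 and 10.68 in Wistar rats. It read 10.79, 10.65, 10.39, 10.35 and 10.28 in GK-Sham-PF rats and 10.54 to 11.21 in GK-S-30 rats. The Wistar arrays were the most scattered and the GK-Sham-PF arrays lay in their lower range. The difference of -0.49 between GK-Sham-PF and Wistar (SE 0.21) was not called (adjusted p = 0.19), but was at -0.67 without Wistar replicate 3 (adjusted p = 0.0308). Without both dimmer arrays it was -0.61 and not called (adjusted p = 0.0591). The change of Treh in the bypass comparison was 0.27 (95% interval -0.17 to 0.71).

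LOC679818, the transcript described as similar to maltase-glucoamylase (rn4, plus strand of chr4:68345274-68345333), read 10.64, 10.94, 11, 11.98 and 10.99 in GK-S-30 rats. It read 11.33 to 11.75 in GK-Sham-PF and 11.41 to 12.16 in Wistar rats. Apart from the array at 11.98, the GK-S-30 values lay below both other groups. The changes were -0.42 (SE 0.21, adjusted p = 0.252) against GK-Sham-PF and -0.57 (SE 0.21, adjusted p = 0.0613) against Wistar.

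The changes of the disaccharidases were set against each other array by array. The change of Si less that of Lct probe A was 0.92 in the bypass comparison, with an exact two-sided permutation p of 0.103 (adjusted p = 0.271 over 21 tests of 7 pairs). With Lct probe B, an alternative chosen after the values were seen, the difference was 0.98 (exact p = 0.0159, adjusted p = 0.0833). Against Wistar it was 1.18, at the smallest p that divisions of 5 and 5 arrays can give, 0.00794 by the exact test (adjusted p = 0.0833). The pair of Si and Mgam could not be set up without a probe of Mgam. No difference passed for any of the 7 pairs.

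The RefSeq promoters of the members, among which Treh was not analysed here, were searched for short motifs of the intestinal regulators HNF1 (GTTAAT), CDX2 (TTTATG) and GATA factors (TGATAA), on both strands of the 250 bases before the annotated start. The promoters of Lct (GRCr8, minus strand of chr13:42376873-42377122) and Si (GRCr8, minus strand of chr2:159884903-159885152) are shown because the values of these 2 genes were set against each other, with each match in capitals.
Lct promoter: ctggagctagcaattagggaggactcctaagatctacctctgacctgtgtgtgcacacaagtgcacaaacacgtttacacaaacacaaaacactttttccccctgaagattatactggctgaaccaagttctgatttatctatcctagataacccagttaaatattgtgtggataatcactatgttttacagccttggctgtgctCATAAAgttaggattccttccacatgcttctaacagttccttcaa
Si promoter: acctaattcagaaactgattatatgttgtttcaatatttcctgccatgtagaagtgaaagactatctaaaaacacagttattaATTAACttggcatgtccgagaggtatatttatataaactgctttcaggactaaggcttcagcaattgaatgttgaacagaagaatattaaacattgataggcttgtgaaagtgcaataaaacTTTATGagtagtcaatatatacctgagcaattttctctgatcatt
The CDX2 letters begin 45 bases before the start in both genes, on the opposite strand in Lct and on the gene's own strand in Si. They are found in 11.4% of the 33469 promoters of the table and in 2 of the 10 with a member's name, Lct and Si. The HNF1 letters begin 167 bases before the start of Si and 98 bases before that of Anpep, the 2 members that hold them, beside 6.45% of all promoters. The GATA letters TGATAA were in 0 of these 10 windows and in 7.97% of all. Only the letters named were searched, so other spellings of a site are not counted. A match is only a run of letters and was not tested against the arrays.

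Of the peptidases, gamma-glutamyltransferase 1 had the largest change in the bypass comparison. Ggt1, which cleaves glutathione and related gamma-glutamyl peptides, read 11.15, 12.63, 12.66, 12.00 and 12.22 in GK-S-30 rats. It read 10.95, 11.03, 10.98, 10.78 and 11.40 in GK-Sham-PF and 11.70, 11.33, 11.20, 12.15 and 11.79 in Wistar rats. All GK-S-30 arrays but replicate 1, at 11.15, were above every GK-Sham-PF array. The Wistar mean of 11.64 lay between those of the GK groups, 11.03 and 12.13.
Ggt1 rose by 1.10 (SE 0.25, 2.15-fold, 95% interval 1.47-fold to 3.13-fold, limma adjusted p = 0.0156) in the bypass comparison. GK-Sham-PF stood at -0.61 from Wistar (SE 0.25, adjusted p = 0.192) and GK-S-30 at 0.50 from Wistar (SE 0.25, adjusted p = 0.174), neither called. The first 2 of these comparisons share the GK-Sham-PF arrays. Without GK-S-30 replicate 1 the rise was 1.35 (adjusted p = 0.00144), and GK-S-30 also passed against Wistar, at 0.74 (adjusted p = 0.017). On the slide shared by both GK groups, 2 arrays each, the means were 11.89 and 11.09. With the slide as a fixed block, where the difference rests on these arrays alone, the change was 0.80 and no longer called (adjusted p = 0.379). With the slide as a random block it was 1.12 (adjusted p = 0.0108). Against Anpep probe A, the change of Ggt1 differed by 1.15 in the bypass comparison, where the pair (Anpep less Ggt1) gave -1.15 with an exact permutation p of 0.0476 (adjusted p = 0.222). Without the dimmer arrays that value was -1.53 (adjusted p = 0.0417).

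Aminopeptidase N, an abundant enzyme that removes single amino acids from peptide ends, showed no called change. Anpep probe A read 14.13, 15.23, 15.46, 14.90 and 15.14 in GK-S-30 rats. It read 15.29, 15.52, 15.21, 15.22 and 13.83 in GK-Sham-PF and 15.43, 15.31, 13.88, 15.51 and 15.43 in Wistar rats. In each group 1 array stood low, and in the control groups it was the dimmer array. The changes were -0.04 (95% interval -0.81 to 0.72) in the bypass comparison, -0.10 (-0.86 to 0.67) in the sham comparison and -0.14 (-0.90 to 0.63) in GK-S-30 against Wistar. Without the dimmer arrays they were -0.34, -0.11 and -0.44. Anpep probe B, over the promoter sequence printed earlier, stood at 0.03 (-0.25 to 0.31), -0.01 (-0.29 to 0.27) and 0.02 (-0.26 to 0.30) in the same order.

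Dipeptidyl peptidase 4, which trims peptides that carry proline or alanine next to their end and inactivates the incretin hormones, gave different answers from its probes. Dpp4 probe A read 15.24, 15.51, 15.73, 15.41 and 15.47 in GK-S-30 rats. It read 15.26, 15.23, 15.18, 15.20 and 15.18 in GK-Sham-PF and 15.06, 15.23, 15.25, 15.02 and 15.04 in Wistar rats. All but the lowest GK-S-30 array were above every array of the other groups.
Dpp4 probe B read 13.64, 13.66, 14.08, 13.96 and 13.96 in GK-S-30 rats. It read 14.20, 14.28, 14.12, 14.17 and 14.12 in GK-Sham-PF and 13.73, 13.91, 14.09, 13.75 and 13.79 in Wistar rats. Here the GK-Sham-PF arrays lay above all arrays of both other groups. Dpp4 probe B was the 1 member probe whose arrays did not overlap in the bypass comparison and the 1 in the sham comparison, beside 8.41% and 9.06% of all tested probes.
Probe A rose by 0.35 (SE 0.09, 1.28-fold, adjusted p = 0.0118) in GK-S-30 against Wistar, where probe B stood at 0.00 (95% interval -0.22 to 0.23). With the slide as a fixed block the change of probe A was 0.35 and not called, a value that rests on 1 Wistar array. In the bypass comparison probe A stood at 0.26 (SE 0.09, adjusted p = 0.0959) and probe B by -0.32 (SE 0.10, adjusted p = 0.0748). In the sham comparison the values were 0.09 (SE 0.09, adjusted p = 0.674) and 0.32 (SE 0.10, adjusted p = 0.0765). Without GK-S-30 replicate 1, probe A passed in the bypass comparison at 0.32 (adjusted p = 0.0468). Probe B passed in both comparisons without the dimmer arrays, at -0.33 (adjusted p = 0.0492) and 0.40 (adjusted p = 0.032). Over 28 alternative settings, probe A passed in 2 and probe B in 5 in the bypass comparison. Probe B passed in 4 in the sham comparison, and probe A in 27 in GK-S-30 against Wistar.
The difference of probe A less probe B on the same array was 1.45 to 1.85 in GK-S-30, 0.95 to 1.06 in GK-Sham-PF and 1.16 to 1.32 in Wistar rats. The ranges of the 3 groups did not overlap. The changes of the probes differed by 0.58 in the bypass comparison, by -0.23 in the sham comparison and by 0.35 in GK-S-30 against Wistar. Each gave an exact two-sided permutation p of 0.00794, the smallest that this design allows (adjusted p = 0.0397 over 15 tests of 5 genes). This test was chosen after the values were seen. Over 20 settings the 3 differences ran from 0.52 to 0.62, from -0.26 to -0.21 and from 0.29 to 0.39. Without 1 of Wistar replicates 2 to 5 or GK-Sham-PF replicate 2, or without both dimmer arrays, 0 of the 3 passed the adjustment. On the slide shared by the GK groups the values were 1.61 and 1.85 in GK-S-30 against 1.03 and 1.06 in GK-Sham-PF. On the other shared slide they were 1.06, 0.95 and 1.06 in GK-Sham-PF against 1.32 in the Wistar array. Because the full ranges did not overlap, the order within these slides was fixed and is no further check. The 2 probes of Lct, Anpep, Enpep and Akp3 gave no called difference, with adjusted p from 0.859 to 0.992.

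**Figure D3:**
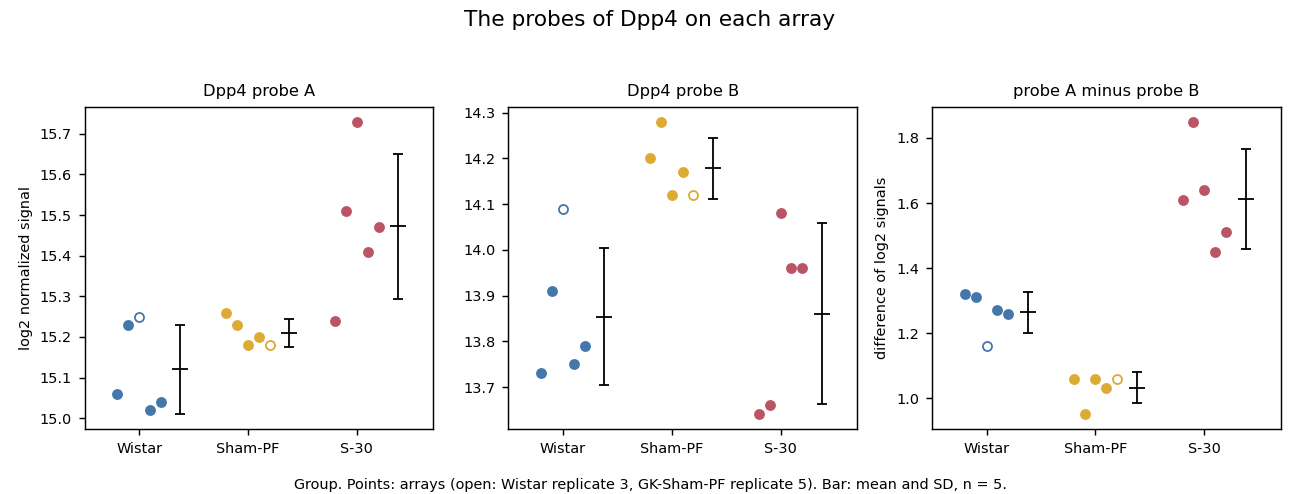
Log2 normalized signal of Dpp4 probe A and probe B and their difference (vertical axes) on each array of the 3 groups (horizontal axis), with the mean and SD of 5 arrays. In the third panel GK-S-30 (1.45 to 1.85), Wistar (1.16 to 1.32) and GK-Sham-PF (0.95 to 1.06) lie in 3 separate ranges.

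Glutamyl aminopeptidase, which cuts acidic residues from peptide ends, had lower means in the RL with both probes, with no call in the fit without slides. Enpep probe A read 13.41, 13.81, 14.79, 14.47 and 14.47 in GK-S-30 rats against 14.31 to 14.88 in GK-Sham-PF and 14.47 to 14.91 in Wistar rats. Enpep probe B (988 bases away) read 9.06, 9.41, 10.46, 9.94 and 9.95 against 10.11 to 10.62 and 10.03 to 10.36. With both probes GK-S-30 replicates 1 and 2 stood below every other array.
The changes against GK-Sham-PF were -0.41 (95% interval -0.87 to 0.04, adjusted p = 0.268) and -0.49 (-0.92 to -0.05, adjusted p = 0.17), and those against Wistar -0.46 (adjusted p = 0.126) and -0.49 (adjusted p = 0.0962). Without GK-S-30 replicate 1 the changes against GK-Sham-PF were -0.22 and -0.31. Without GK-S-30 replicate 3, the highest of its group, probe B was called at -0.66 against GK-Sham-PF (adjusted p = 0.0355) and both probes against Wistar, at -0.61 (adjusted p = 0.0419) and -0.66 (adjusted p = 0.0152). On the slide shared by the GK groups the means of probe B were 9.23 in GK-S-30 and 10.15 in GK-Sham-PF. With the slide as a fixed block, probe B was called against GK-Sham-PF at -0.92 (adjusted p = 0.0491) and probe A, at -0.86 (adjusted p = 0.0557), was not. In that fit the difference came only from the slide shared by the GK groups. It was thus no check apart from the slide means. The GK-S-30 arrays on that slide were replicates 1 and 2, the lowest of the group. GK-Sham-PF and Wistar differed by -0.05 (-0.50 to 0.40) and 0.00 (-0.44 to 0.43).
Neprilysin, an endopeptidase, went the other way without a call: Mme read 14.36 to 15.11 in GK-S-30, 14.44 to 14.98 in GK-Sham-PF and 14.45 to 15 in Wistar rats, with changes of 0.16 (-0.16 to 0.48), -0.03 (-0.35 to 0.29) and 0.13 (-0.19 to 0.45). The changes of Enpep probe A and Mme differed by -0.57 in the bypass comparison (exact permutation p = 0.0159, adjusted p = 0.222) and by -0.59 in GK-S-30 against Wistar (exact p = 0.0238, adjusted p = 0.222).

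Intestinal alkaline phosphatase, which detoxifies bacterial lipopolysaccharide, showed no called change. Alpi read 15.29 to 16.00 in GK-S-30 (15.61 ± 0.26, SD, n = 5), 15.41 to 16.28 in GK-Sham-PF (15.74 ± 0.33) and 15.40 to 16.26 in Wistar rats (15.94 ± 0.33). Its changes were -0.13 (95% interval -0.52 to 0.27), -0.21 (-0.60 to 0.19) and -0.33 (-0.72 to 0.06) in the bypass comparison, the sham comparison and GK-S-30 against Wistar.
Akp3 probe A varied more between arrays of 1 group than any other member probe. Akp3 probe A read 9.40, 6.32, 4.89, 9.61 and 7.33 in GK-S-30 rats. It read 11.27, 8.49, 7.32, 6.95 and 9.38 in GK-Sham-PF and 9.73, 9.81, 5.99, 11.68 and 8.53 in Wistar rats. The lowest and highest of the 15 arrays lay 110-fold apart, and the Wistar arrays alone 51.4-fold.
Its within-group SD of 1.95 compares with a median of 0.24 over all tested probes, and only 1 of the 17029 had a larger SD. Akp3 probe B, placed 454 bases upstream, read 7.41, 6.23, 5.73, 7.44 and 5.75 in GK-S-30 rats. It read 9.39, 7.16, 6.77, 6.58 and 7.58 in GK-Sham-PF and 7.73, 8.11, 6.64, 9.33 and 7.14 in Wistar rats. High and low arrays were largely the same for both probes.
After the group means were subtracted, the Akp3 probes correlated over the 15 arrays with Pearson's r of 0.92 and Spearman's rho of 0.95 (each permutation p = 1e-05, the smallest that 1e+05 resamples can give, adjusted p = 2e-05 over 2 relations). Without the 2 arrays farthest from the median r was 0.92. Akp3 probe A and Alpi gave r = 0.67 (permutation p = 0.00677) and rho = 0.68 (permutation p = 0.00712), and r = 0.42 without the 2 farthest arrays. Alpi and Akp3 probe B gave r = 0.77. Alpi ran more closely with Treh (r = 0.85), which gave r = 0.58 with Akp3 probe A and 0.64 with Akp3 probe B. With this spread, the changes of Akp3 probe A, -1.17 (95% interval -3.52 to 1.18), -0.47 (-2.82 to 1.88) and -1.64 (-3.99 to 0.71), were not detectable with 5 arrays a group. Those of probe B were -0.99 (-2.20 to 0.23), -0.29 (-1.51 to 0.92) and -1.28 (-2.50 to -0.06, adjusted p = 0.119).

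The members varied together within groups to different degrees. Over the 105 pairs of member probes, the correlation of the deviations from the group means over 15 arrays had a median of 0.33, with 38 pairs above 0.5 and 28 below 0. These values describe arrays that were normalized together, some of them on the same slide. The part of labelling, slide and normalization in the correlations was not tested. Lct probe A ran with Anpep probe A (r = 0.91), Mme (r = 0.89) and Si (r = 0.84), all of them low in GK-S-30 replicate 1 and in the dimmer arrays. In GK-S-30 replicate 1, 12 of the 15 probes were below the mean of the other 4 arrays of the group, and so were 12 in Wistar replicate 3 and 11 in GK-Sham-PF replicate 5. The median deviations of these arrays were -0.47, -0.47 and -0.27. The count alone did not single them out: GK-Sham-PF replicates 4 and 3 had 12 and 10 probes below, with medians of -0.09 and -0.08. The Dpp4 probes ran with each other (r = 0.75) and probe B of Dpp4 with probe B of Enpep (r = 0.84).
Among the 12996 other genes tested, the deviations most like those of Si were of Prkag2 (r = 0.91), Sra1 (r = 0.90) and Prkch (r = 0.89). Those most like Lct probe A were of Ip6k1 (r = 0.97), Tmc4 (r = 0.95) and Slc12a7 (r = 0.94). Those most like Anpep probe A were of Susd2 (r = 0.98), Ace (r = 0.96) and Vps72 (r = 0.96), of which Ace, angiotensin-converting enzyme, is itself a brush border peptidase. The largest deviations of Lct probe A and Anpep probe A were those of the dimmer arrays and GK-S-30 replicate 1. Whether genes of like deviations are regulated together was not tested.

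**Figure D4:**
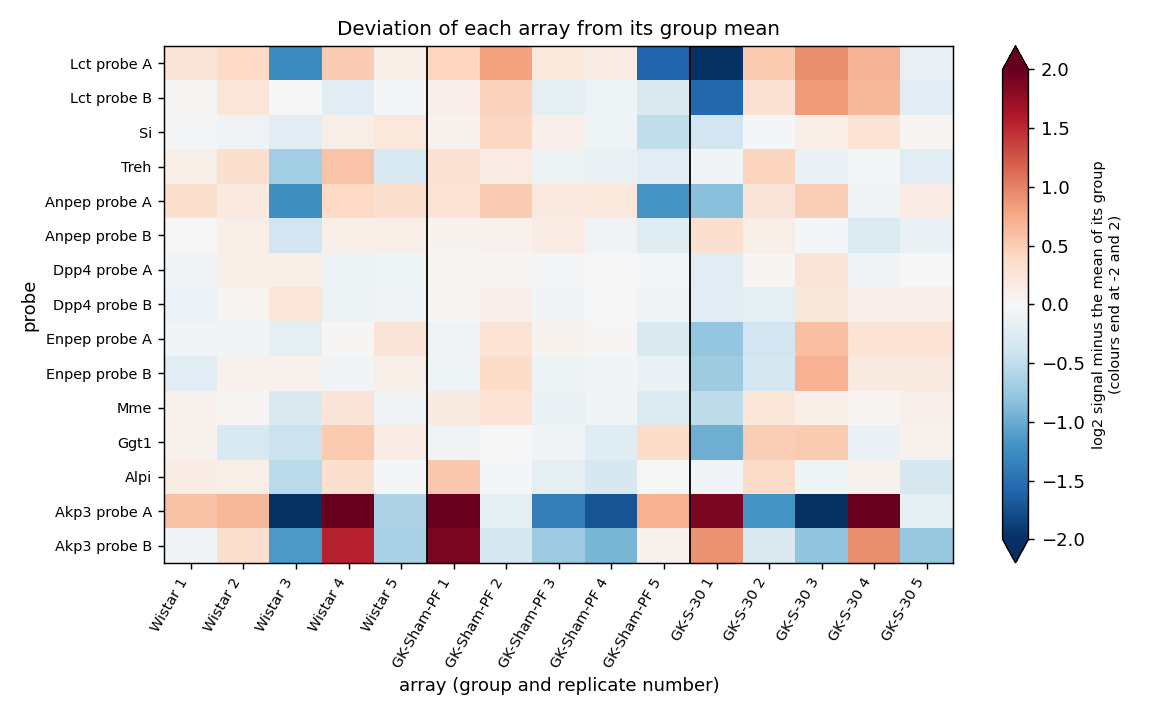
Log2 signal of each member probe (rows) on each of the 15 arrays (columns) less the mean of its group, as colour from blue (lower) to red (higher). Lct probe A and Anpep probe A are low in Wistar replicate 3, GK-Sham-PF replicate 5 and GK-S-30 replicate 1, and the row of Akp3 probe A has the widest spread.

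Genes around these enzymes were read from lists. Beside their counts, 8.36%, 7.88% and 24.1% of all tested probes were called in the bypass comparison, the sham comparison and GK-S-30 against Wistar. Of the 13 measured other brush border hydrolases, 1 was called higher and 1 lower in the bypass comparison, 1 higher and 0 lower in the sham comparison, and 3 higher and 2 lower in GK-S-30 against Wistar. Tmprss15, the enteropeptidase that activates trypsinogen, rose by 1.70 (SE 0.41, adjusted p = 0.0189) in the bypass comparison. Enpp7, the alkaline sphingomyelinase, changed by -1.74 (SE 0.39, adjusted p = 0.013) in the same comparison and by -1.77 (adjusted p = 0.00403) against Wistar. Plb1, a brush border phospholipase, was higher by 3.11 (SE 0.89, adjusted p = 0.0438) in GK-Sham-PF and by 3.74 (adjusted p = 0.0066) in GK-S-30 than in Wistar rats. Mep1b, the beta subunit of the metallopeptidase meprin, was higher by 1.06 (SE 0.20, adjusted p = 0.00122) in GK-S-30 than in Wistar rats.
Of the 6 measured intracellular peptidases, which split the small peptides taken up, 0 were called in any comparison. Of the 8 measured transporters of the released sugars, peptides and amino acids, 0 were called in the bypass or the sham comparison and 3 were called higher in GK-S-30 than in Wistar rats. These were the peptide transporter Slc15a1 (0.51, SE 0.16, adjusted p = 0.0261) and the amino acid transporters Slc7a9 (0.45, SE 0.14, adjusted p = 0.032) and Slc1a1 (0.77, SE 0.18, adjusted p = 0.00537). The basolateral glucose transporter Slc2a2 stood at -0.62 in GK-S-30 against both GK-Sham-PF (adjusted p = 0.109) and Wistar (adjusted p = 0.0549), without a call.
Of the 13 genes of the microvillus scaffold, 1 was called lower in the bypass comparison, the myosin Myo7b (-0.39, SE 0.12, adjusted p = 0.0476), and 0 were called in the sham comparison. In GK-S-30 against Wistar 1 scaffold gene was called higher, the membrane linker Ezr (0.33, SE 0.11, adjusted p = 0.0346), and 2 lower, Myo7b (-0.52, adjusted p = 0.00432) and the actin bundler Pls1 (-0.45, adjusted p = 0.0298). Of the 9 measured transcription factors of enterocytes, 1 was called in any comparison, Cdx1 at 0.26 (SE 0.09, adjusted p = 0.0367) in GK-S-30 against Wistar. Hnf4a stood at 0.41 (adjusted p = 0.194) and Gata4 by 0.19 (adjusted p = 0.35) in the bypass comparison.

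Markers of other cells in the segment were read in the same way, in the bypass comparison, where 8.36% of all tested probes were called. Called higher were 4 of 6 fibroblast, 1 of 5 goblet cell and 2 of 10 enterocyte and epithelial markers, the last being Krt19 (0.56, adjusted p = 0.0343) and Krt18 (0.29, adjusted p = 0.0442). Called lower were 2 of 9 leukocyte and 1 of 4 pancreatic acinar markers. Of 8 markers of dividing crypt cells, 4 endothelial and 3 gastric markers 0 were called. Both genes of the distal ileum were called higher, the bile acid transporter Slc10a2 by 3.43 (SE 0.30, adjusted p = 9.39e-06) and the bile acid binding protein Fabp6 by 1.71 (SE 0.42, adjusted p = 0.0211). In the sham comparison, Slc10a2 was called lower, at -2.41 (SE 0.30, adjusted p = 5.99e-05). Against Wistar, 5 of the 9 leukocyte markers were called lower and 1 higher in GK-S-30 rats, and 6 of the 9 smooth muscle markers higher. In that comparison 24.1% of all tested probes were called. Whether these cells had a part in the values of the brush border enzymes was not tested.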

How the data were processed

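The deposited files hold 1-colour signal intensity per spot from Feature Extraction 10.7.3.1 by the file header (10.7 in the labels), background-corrected by the authors. The authors also deposited a table of log2 values, normalized by quantiles in GeneSpring per the methods. Here, log2 processed intensities were quantile-normalized over 15 arrays, outlier spots and controls left out and spots of a probe averaged, and fitted with limma 3.58.1 in R 4.3.3 over all 3 groups without covariates. P-values were adjusted by Benjamini-Hochberg over the 17029 of 22503 named probes with a signal well over background on all arrays of some group. Symbols came from RefSeq (GRCr8) by accession for 17541 probes, by symbol for 3098 and by synonym for 539, and 1325 kept the file's name. Differences between probes used an exact two-sided permutation test. The fit was tested on simulated data. The number of arrays limits the precision. Separate rats are implied but no further replicate record is given. The p-values thus set group differences against the spread between these samples. The genes to name were every member probe, in each list the 4 genes with the lowest adjusted p, of which the text gives only some, and for Si, Lct and Anpep the 3 genes with the most similar deviations. The members, lists and tests were chosen with earlier results of these data known. Alternatives were 75th percentile scaling, normexp (offset 50), the series table, other probe filters, outlier spots kept, slide blocks, the replicate block, Tukey comparisons of the methods, 2 groups only and leaving out arrays.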

Additional observations from a re-analysis of the deposited data

Results flagged for a closer look

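Of the 45 sets of 5 arrays (15 probes in 3 groups), 8 held an array whose gap to its nearest neighbour, divided by the range of the group, was above 0.71, the limit of Dixon's test for 5 arrays. Chance gives about 5% of such sets. Wistar replicate 3, a dimmer array, stood lowest for Lct probe A (9.90, nearest 11.30, gap share 0.786), Anpep probe A (13.88, nearest 15.31, gap share 0.876) and Anpep probe B (7.70, nearest 8.07, gap share 0.72). The other dimmer array, GK-Sham-PF replicate 5, stood lowest for Lct probe A (9.71, nearest 11.44, gap share 0.723) and Anpep probe A (13.83, nearest 15.21, gap share 0.818). In GK-S-30, replicate 1 was lowest for Mme (14.36, nearest 14.91, gap share 0.738) and replicate 2 highest for Treh (11.21, nearest 10.73, gap share 0.715). GK-Sham-PF replicate 2 was highest for Enpep probe B (10.62, nearest 10.20, gap share 0.82).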

How the results depend on the processing

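Over 28 alternative settings no called member changed sign. In the bypass comparison, 1 member probe was called of 1424 probes in all. With normexp 3 members were called (1448 of all probes), and without the dimmer arrays 2 (1880). The unadjusted Tukey comparison called 4 (2565) and the Tukey comparison adjusted over all probes 0 (565). With the slide as a fixed block 1 member, Enpep probe B in place of Ggt1, and 327 of all probes were called. Leaving out 1 array gave 1 to 4 members and 937 to 1726 of all probes. In the sham comparison, 0 members and 1342 of all probes were called. There, normexp (1277 of all), the unadjusted Tukey comparison (2373) and leaving out the dimmer arrays (1572) each called 1 member. The adjusted Tukey comparison called 827 of all, the fixed slide block 210 and the fit with unnamed probes 2184. Leaving out 1 array gave 0 to 2 members and 997 to 1473 of all probes. In GK-S-30 against Wistar, with 2 members and 4101 of all, the fixed slide block called 0 members (268 of all), the adjusted Tukey comparison 1 (2690) and the fit with unnamed probes 6352 of all. Leaving out 1 array gave 2 to 4 members and 3364 to 4531 of all probes. Of the pair differences 4 passed without the dimmer arrays, against 0. Of the differences between probes of a gene, 3 passed, 0 without the dimmer arrays and 0 to 3 without 1 array. The causes of these changes were not tested. Within the slide shared by the GK groups, 7 of the 7 pair differences of the bypass comparison kept their sign, and 6 of 7 did for the sham comparison on its shared slide, the exception being Enpep probe A and Mme. The smallest exact permutation p these slides allow is 0.333 and 0.25. The arrays of these slides are part of the full comparisons and the pairs share probes, so the kept signs are no separate check.

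The replicate numbers were only numbers: 15 pairs of arrays with the same number correlated at -0.29 to 0.20 in their deviations, 3 of them above 0.1. With the replicate block 1, 0 and 2 members were called, and 963, 986 and 3350 of all probes, in the bypass comparison, the sham comparison and GK-S-30 against Wistar. The number of arrays, and the 66.7% to 74.8% of probes well above background on each array, limit what could be detected.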
